A study of Vitis vinifera with 11 samples.

Results

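Tendrils of grapevine (Vitis vinifera) were compared with young leaves by single-end mRNA sequencing, using 5 of the 11 libraries of the study. The members were chosen by the organ named in the sample labels, not by any measured value. The 3 tendril libraries came from Pinot Meunier L2, the control vine of the study, with 1 library each from the structures at nodes 1, 2 and 3 counted from the shoot apex. The 2 leaf libraries were pools of immature leaves of the 3 stages, 1 from the picovine 06C021V0046 and 1 from Pinot Meunier L2. The other 6 libraries were inflorescences of 2 picovine lines and entered the estimate of the spread and the choice of genes tested, but not the contrast. The labels name no treatment for any plant, and all were grown in a controlled day and night cycle. Since tendrils were taken from Pinot Meunier L2 alone, the organ and the vine it came from cannot be told apart where the picovine leaf pool decides a value. Each gene was therefore also read within Pinot Meunier L2, where 3 tendril libraries face 1 leaf pool.

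A grapevine tendril is a climbing organ that arises opposite a leaf from the same uncommitted primordium that can also form an inflorescence. Gibberellin favours the tendril fate: in the chimeric cultivar Pinot Meunier the outer cell layer carries a gibberellin response mutation, and vines grown from that layer form inflorescences where tendrils would stand. Pinot Meunier L2 plants come from the inner layer, which lacks it. Picovines are dwarf vines. Leaves express the photosynthetic machinery and, in grapevine as in other plants, can accumulate pathogenesis-related proteins such as PR-1, glucanases, chitinases and thaumatin-like proteins, which act against microbes.

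The libraries held 9.92, 7.36 and 15.18 M reads in genes (M, 1e6) in the tendrils of nodes 1, 2 and 3, against 9.20 and 14.99 M in the picovine and Pinot Meunier L2 leaf pools. Values were deposited as RPKM, reads per kilobase of gene and per 1e6 mapped reads, and between 17064 and 17400 genes reached 1 RPKM in a tendril library, against 18086 and 18387 in the leaf pools. Levels between genes are compared on this scale only. A gene of 1 kilobase with 3 reads stood between 0.198 and 0.408 RPKM, depending on the library. The 6 flower organ markers MADS9, TM6, AP3, MADS2, MADS1 and AG summed to 0.927, 1.15 and 0.952 RPKM in the tendrils, against 5.51 and 3.66 RPKM in the picovine and Pinot Meunier L2 leaf pools. None of them exceeded 0.692 RPKM in a tendril or 3.85 RPKM in a leaf pool. The 6 photosynthesis and chloroplast genes summed to 1082, 1294 and 352 RPKM in tendrils of nodes 1, 2 and 3, against 659 and 999 RPKM in the leaf pools. The sum of this short list therefore did not separate the organs. PSBP1 made up a large part of every sum, whereas NDHM, a member at lower levels, was called lower in tendrils. Photosynthesis genes known only by a locus number were not in the list. The part of other cells in the results below was not tested. As in any bulk sample, fewer cells of a type and less RNA per cell cannot be told apart.

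The tendril libraries did not follow their node order. The library labelled node 1 lay between the other two: it stood at least 2-fold above both in 35 genes and at least 2-fold below both in 8. The library labelled node 2 stood above both in 613 genes and below both in 777, and that of node 3 above both in 495 and below both in 1535. In the inflorescences the middle library was that of node 2, which stood outside both others in 47 genes in 06C021V0046 and in 62 genes in 06C008V0003. Across the genes, which are not independent, tendril nodes 1 and 2 correlated at 0.955, nodes 1 and 3 at 0.938, and nodes 2 and 3 at 0.861 (Pearson, log2 scale), and the leaf pools at 0.917. The labels were kept, and what sets this order was not tested. Results that rest on 1 tendril library are given with the value without it. Without tendril node 1 or node 3 the tendril level in the fit rests on the node 2 library alone, for every gene. A call lost in those fits therefore does not show that the gene depends on the library left out.

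**Figure D1:**
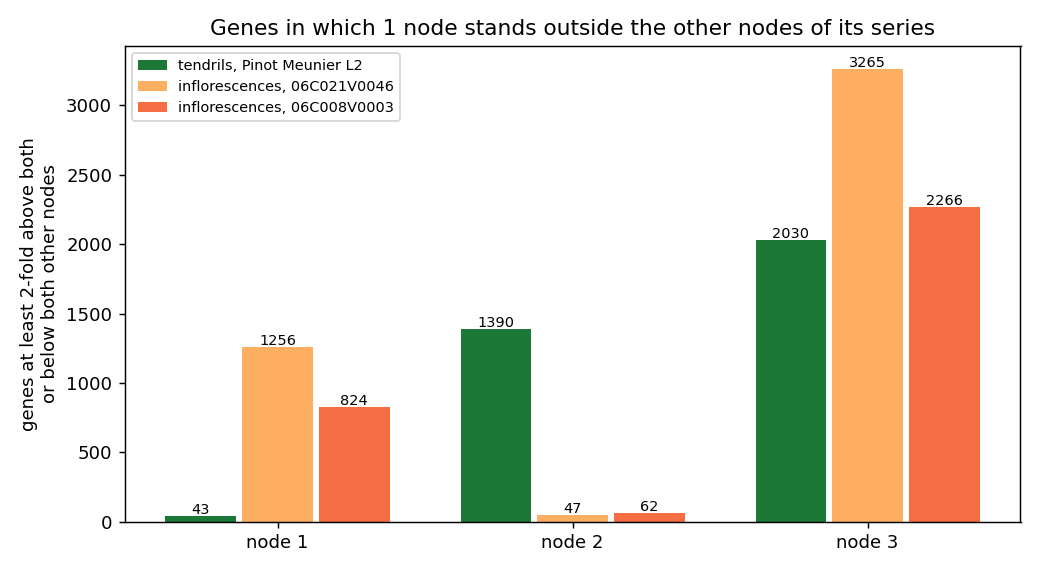
Number of genes (y axis) in which the library of 1 node (x axis) stood at least 2-fold above or at least 2-fold below both other nodes, for the tendrils of Pinot Meunier L2 and the inflorescences of each picovine line. In tendrils the lowest bar is node 1, with 43 genes, whereas in inflorescences it is node 2, with 47 and 62 genes.

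Fewer genes were higher than lower in tendrils. Of 19761 genes tested, 572 were called higher in tendrils (2.89%) and 1918 lower (9.71%), or 2490 in all (12.6%), by limma on log2(RPKM + 1) at a Benjamini-Hochberg adjusted p below 0.05. The contrast is the tendril level at node 2, which with 3 equally spaced nodes is the mean of the 3 tendril libraries, minus the mean of the leaf pools. At an unadjusted p below 0.05 there were 5272 genes. The gene lists below hold only genes with a name other than a locus number. Of all such genes tested, 6.36% were called higher, 16.3% lower and 22.6% in all. The rises had a median log2 change of 1.60 and the falls of -1.77, and all genes together stood at -0.14. Changes of at least 4-fold were found for 171 genes higher and 781 lower in tendrils, and of at least 16-fold for 6 and 82. In 104 of the rises the leaf mean, and in 720 of the falls the tendril mean, was under 1 RPKM. The split between the directions depended on scaling: rises made up 23.0% of calls on the deposited scale, 42.3% after quantile normalization (971 higher, 1322 lower) and 37.4% after median-ratio scaling (919 higher, 1535 lower). Those scalings moved the median of all genes to 0.05 and 0.03.

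Within Pinot Meunier L2 the directions held. The leaf pool of that vine lay below all 3 tendril libraries for 560 of the 572 genes called higher (97.9%) and above them for 1917 of the 1918 called lower (99.9%), and in no called gene did the sign turn round. The pool belongs to the test, so these shares are a description, and over all tested genes it lay below all 3 tendrils in 18.0% and above them in 36.9%. Both pools lay below all 3 tendrils in 10.8% of all genes tested and above them in 27.0%, the background for every statement of no overlap that follows. The median difference from the tendrils was smaller there, 1.38 and -1.64 for the rises and falls, against 1.80 and -1.90 for the picovine pool. The picovine pool lay farther from the tendrils for 403 of the rises (70.5%) and for 1309 of the falls (68.2%). With the picovine pool left out, 1159 genes were called (5.87%; 174 higher, 985 lower), of which 1062 were also called with both pools. With cultivar as a block, which leaves the contrast to Pinot Meunier L2, 1342 genes were called (6.79%; 216 higher, 1126 lower), of which 1190 were shared. Both alternatives have fewer leaf libraries behind the contrast.

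**Figure D2:**
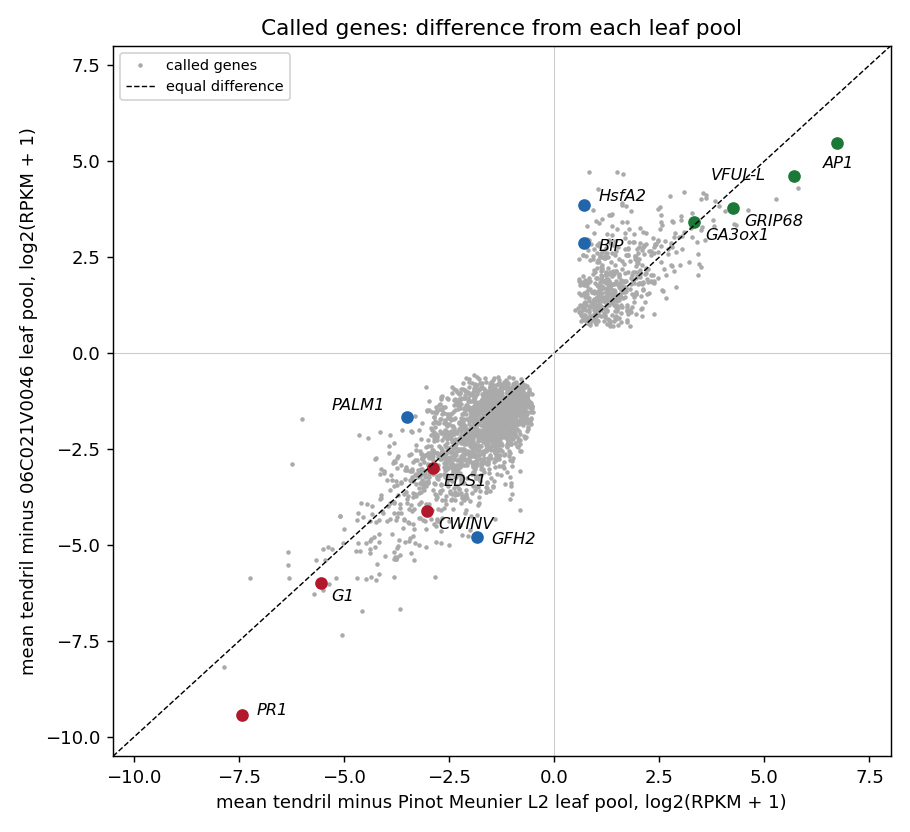
Mean of the 3 tendril libraries minus the Pinot Meunier L2 leaf pool (x axis) and minus the picovine leaf pool (y axis), both on log2(RPKM + 1), for the 2490 called genes (grey), with 12 named genes marked as higher (green), lower (red) or with leaf pools far apart (blue). Green and red genes lie far from 0 on both axes, whereas HsfA2, BiP and GFH2 lie far from the dashed line of equal difference, with a difference of 0.72, 0.71 and -1.85 from the Pinot Meunier L2 pool.

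Among genes with names, the largest falls in tendrils were those of antimicrobial proteins. Of 18 genes for pathogenesis-related proteins, chitinases and glucanases, 12 fell in tendrils (66.7%, beside 9.71% of all genes), none rose and 6 were not called. The median log2 change was -3.44 over the list, and -3.13 against the Pinot Meunier L2 pool alone, beside -0.14 over all genes. The Pinot Meunier L2 leaf pool lay above all 3 tendrils in 15 of the 18, as it did in 36.9% of all genes. PR1, a member of the PR-1 family of secreted antimicrobial proteins, stood at 3.91, 3.24 and 4.62 RPKM in tendrils of nodes 1, 2 and 3, against 3338 RPKM in the picovine and 848 RPKM in the Pinot Meunier L2 leaf pool. The tendrils were alike and far below both pools, which themselves differed (log2 change -8.43 ± 0.57 SE, adjusted p = 1.99e-05 by limma). The ratio of pooled leaf reads over pooled tendril reads, at equal depth, was 439 (95% counting interval 356 to 547). A further family member, PR-1, had 0, 0.652 and 0.105 RPKM in tendrils, against 17.6 and 9.18 RPKM in the picovine and Pinot Meunier L2 leaf pools (-3.49 ± 0.33 SE). Every tendril was below every leaf pool here too (adjusted p = 0.000133 by limma).

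G1, a beta-1,3-glucanase that cuts fungal wall glucans, had 1.36, 1.08 and 2.30 RPKM in tendrils, against 158 and 118 RPKM in the picovine and Pinot Meunier L2 leaf pools. Both pools were at like levels, and the log2 change was -5.77 ± 0.37 SE (adjusted p = 1.73e-05 by limma). Chitinases break the chitin of fungal walls. CHI1B stood at 9.99, 22.3 and 7.71 RPKM in tendrils, against 540.4 and 178 RPKM in the picovine and Pinot Meunier L2 leaf pools, and chit1a at 2.70, 10.1 and 3.82 RPKM, against 124 and 63.2 RPKM. Of these, CHI1B changed by -4.57 ± 0.49 and chit1a by -3.94 ± 0.50 SE (adjusted p = 0.00033 and 0.000734 by limma). The node 2 library was the highest tendril for both chitinases, and it was still below both pools. CHI4D had 0.435, 0.822 and 1.196 RPKM in tendrils, against 79.2 and 32.4 RPKM in those pools (-4.85 ± 0.77 SE, adjusted p = 0.00257 by limma). Its difference with the cultivar block was -4.22, at an adjusted p of 0.0515. CHI4C, with 2.30 to 2.71 RPKM in tendrils, against 17.1 and 14.7 RPKM in the leaf pools, was called at 0.0482 by limma. Its call was lost whichever of the 5 libraries was left out (adjusted p from 0.0636 to 0.256), and with the block (0.0575).

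The PR10 proteins are small intracellular proteins with a ribonuclease-like fold. PR10.2 had 13.8, 24.4 and 23.3 RPKM in tendrils, against 823 and 286 RPKM in the picovine and Pinot Meunier L2 leaf pools (-4.54 ± 0.66 SE, adjusted p = 0.00158 by limma). PR10.3 had 1.01, 2.20 and 1.15 RPKM in tendrils, against 143 and 44.5 RPKM in those pools (-5.08 ± 0.80 SE, adjusted p = 0.00239 by limma). The picovine pool was the higher of the leaf pools in both genes. PR10.4 had 1 read in all tendrils, against 6.31 and 4.98 RPKM in the leaf pools, and PR10.8 had 2 reads, against 6.37 and 3.53 RPKM (adjusted p = 0.000103 and 0.00283 by limma). PR10.7 did not follow them: it stood at 152, 15.4 and 216 RPKM in tendrils, against 252 and 97.4 RPKM in the leaf pools, with overlap and no call (adjusted p = 0.572 by limma). How reads were shared between the genes of this family is not given in the sources used here, so each value may hold reads of another member. TL3, a thaumatin-like protein, had 0.494, 0.799 and 4.33 RPKM in tendrils, against 46.6 and 21.5 RPKM in the leaf pools (-3.75 ± 0.64 SE, adjusted p = 0.00363 by limma). Its call ended without the picovine pool (0.0534) and with the block (0.0702). TL1, with 0.833 to 3.44 RPKM in tendrils, against 17.5 and 44.0 RPKM in the leaf pools, was not called (0.0628).

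**Figure D3:**
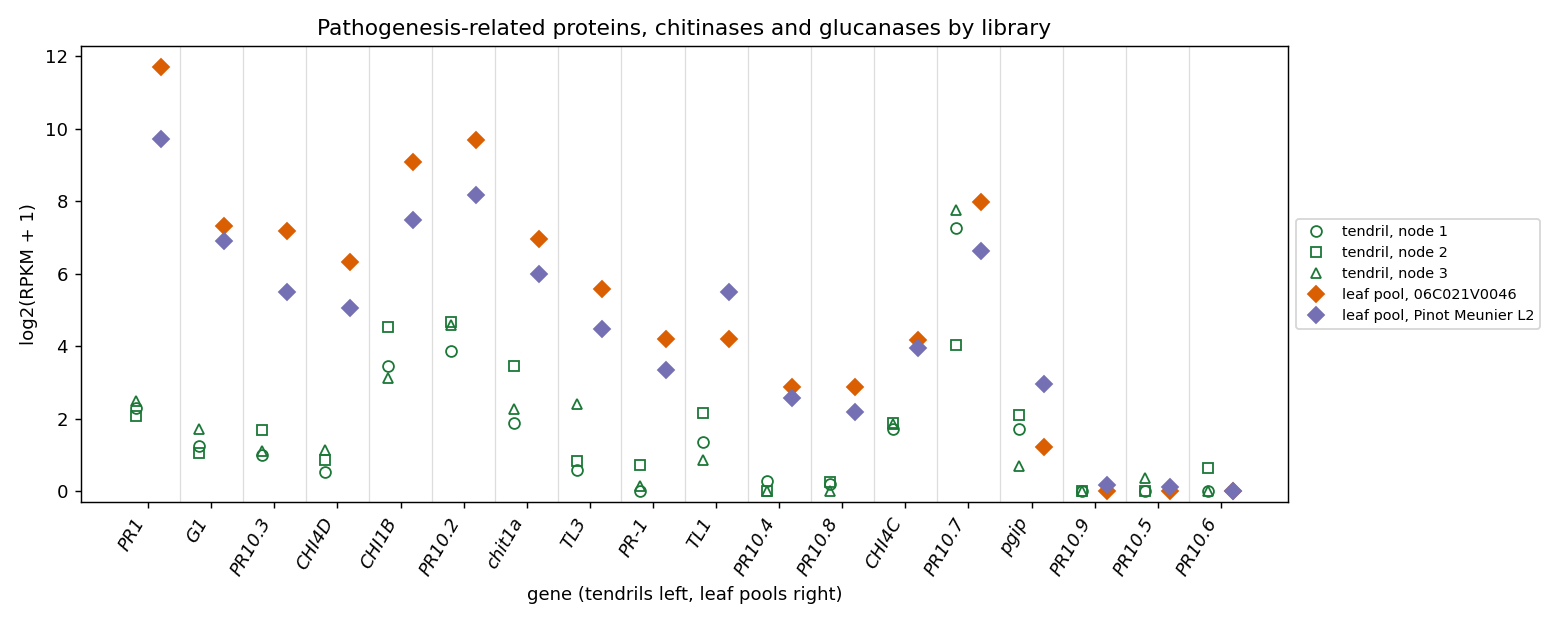
Levels as log2(RPKM + 1) (y axis) of the 18 genes for pathogenesis-related proteins, chitinases and glucanases (x axis, ordered by log2 change), with tendrils as open green symbols to the left, 1 shape per node, and the leaf pools as filled diamonds to the right. From PR1 at the left to CHI4C both leaf pools lie above the tendrils, whereas PR10.7, pgip and the barely read PR10.5, PR10.6 and PR10.9 show overlap or no difference.

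Of 8 regulators and other defence genes, 3 fell in tendrils (37.5%, beside 9.71% of all genes) and none rose. The median log2 change was -0.52, beside -0.14 over all genes. EDS1, a lipase-like protein needed for immunity through intracellular receptors, had 9.75, 8.05 and 5.81 RPKM in tendrils, against 68.6 and 63.6 RPKM in the picovine and Pinot Meunier L2 leaf pools. The pools were close to each other and the change of -2.94 ± 0.31 SE was as large within Pinot Meunier L2 (-2.89; adjusted p = 0.000312 by limma, and 0.00521 without the picovine pool). BAP1 had 0.269, 1.09 and 0.088 RPKM in tendrils, against 10.2 and 10.1 RPKM in the leaf pools (-2.96 ± 0.47 SE, adjusted p = 0.00257 by limma). VINST1, a stilbene synthase of the kind that makes resveratrol, had 3 reads in all tendrils, against 8.56 and 2.52 RPKM in the leaf pools. It was called at 0.0379, but not when tendril node 1, 2 or 3 was left out (0.167, 0.0542 and 0.168), without the picovine pool (0.332) or with the block (0.275). The flagellin receptor FLS2 and the WRKY factors WRKY2, WRKY20 and WKRY were not called, with adjusted p between 0.255 and 0.925.

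MLO genes encode membrane proteins, known in barley and other plants for members that powdery mildew fungi need. Of 6 tested MLO genes, 3 fell in tendrils and 3 were not called. Beside this, 9.71% of all genes tested and 16.3% of genes with a name fell. MLO7 had 0.175, 0.392 and 0.190 RPKM in tendrils, against 5.27 and 4.47 RPKM in the picovine and Pinot Meunier L2 leaf pools (-2.23 ± 0.32 SE, adjusted p = 0.00148 by limma). MLO11 had 0.171, 0.308 and 0.261 RPKM in tendrils, against 4.36 and 4.19 RPKM in those pools (-2.08 ± 0.33 SE, adjusted p = 0.00243 by limma). MLO6 had 5.16, 11.7 and 2.08 RPKM in tendrils, against 42.1 and 35.3 RPKM in those pools (-2.67 ± 0.42 SE, adjusted p = 0.00252 by limma). The groups did not overlap in any of the 3, and the leaf pools of both vines were alike. MLO3, MLO5 and MLO15 overlapped between the organs, with adjusted p between 0.742 and 0.89.

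Among genes with names, the largest rises in tendrils were those of 2 flowering genes, AP1 and VFUL-L. Of 15 flowering genes, 4 rose and 3 fell in tendrils, a share of 46.7% beside 12.6% of all genes, with a median of 0.05. AP1, a MADS-box factor of the APETALA1 group, stood at 162, 119 and 298 RPKM in tendrils of nodes 1, 2 and 3, against 3.04 and 0.70 RPKM in the picovine and Pinot Meunier L2 leaf pools (6.10 ± 0.39 SE, adjusted p = 1.73e-05 by limma). VFUL-L, a FRUITFULL-like relative, stood at 69.3, 68.5 and 77.0 RPKM in tendrils, against 1.96 and 0.391 RPKM in those pools (5.16 ± 0.31 SE, adjusted p = 1.73e-05 by limma). Both were lowest in the Pinot Meunier L2 pool, so the differences within that vine were larger, 6.73 and 5.70. FT, the mobile flowering signal made in leaves of many plants, had 6.16, 4.72 and 12.9 RPKM in tendrils and no read in either leaf pool. Its reads were at least 60.4-fold higher in tendrils, taking 3 reads as the floor of the pools together (adjusted p = 0.000667 by limma). MADS3, a relative of the SEPALLATA genes, had 7.24, 15.3 and 9.17 RPKM in tendrils, against 0.0951 and 0.876 RPKM in the leaf pools (2.95 ± 0.37 SE, adjusted p = 0.000734 by limma).

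The 3 flowering genes that fell were AG, AP2 and MADS8. AG, of the stamen and carpel identity class, had 2 reads in all tendrils, against 3.85 and 1.42 RPKM in the picovine and Pinot Meunier L2 leaf pools (-1.69 ± 0.30 SE, adjusted p = 0.00487 by limma). AP2 had 8.56, 13.5 and 4.83 RPKM in tendrils, against 18.6 and 44.2 RPKM in those pools (-1.67 ± 0.43 SE). The groups did not overlap, but the call (adjusted p = 0.0287 by limma) ended without the Pinot Meunier L2 pool (0.163) and without tendril node 1 or node 3 (0.258 each). MADS8, the grapevine SOC1 that promotes flowering in other plants, had 47.0, 37.0 and 68.1 RPKM in tendrils, against 125 and 113 RPKM in the leaf pools (-1.26 ± 0.35 SE). Its groups did not overlap, but its call (0.0422 by limma) ended with the block (0.12) and whichever of the 5 libraries was left out (from 0.0551 to 0.231).

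Among 5 gibberellin genes, 2 rose in tendrils (40.0%, beside 2.89% of all genes) and 1 fell (20.0%, beside 9.71%). Those that rose were an enzyme that finishes the hormone and 1 that ends it, and the gene that fell was a receptor. GA3ox1, which makes the bioactive hormone, had 62.3, 43.2 and 56.8 RPKM in tendrils, against 4.10 and 4.44 RPKM in the picovine and Pinot Meunier L2 leaf pools. The 3 tendrils were close together and both pools alike (3.37 ± 0.27 SE, adjusted p = 5.51e-05 by limma). GA2ox6, of the class that inactivates gibberellin, had 2.30, 2.53 and 17.2 RPKM in tendrils, against 0.184 and 0.904 RPKM in those pools. The node 3 tendril stood far above the other tendrils (1.99 ± 0.37 SE, adjusted p = 0.00637 by limma). Without tendril node 1, tendril node 3 or the picovine pool the adjusted p was 0.0743, 0.0697 and 0.0749, and with the block 0.0826. GID1A, a gibberellin receptor, had 25.1, 28.9 and 32.1 RPKM in tendrils, against 105 and 69.9 RPKM in the leaf pools (-1.55 ± 0.23 SE, adjusted p = 0.0018 by limma). It kept its call in every alternative run. VVGAI1, the DELLA repressor of gibberellin response that is altered in the outer layer of Pinot Meunier, had 38.6, 68.3 and 3.21 RPKM in tendrils, against 2.10 and 13.6 RPKM in the picovine and Pinot Meunier L2 leaf pools. The node 3 tendril lay among the leaf values, and the gene was not called (adjusted p = 0.188 by limma), although it was without tendril node 1 or node 3 (0.0318). GA20ox1, which makes the precursor of the last step, had 0 to 0.172 RPKM in tendrils, against 2.26 and 0.521 RPKM in the leaf pools, with no call (0.138).

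**Figure D4:**
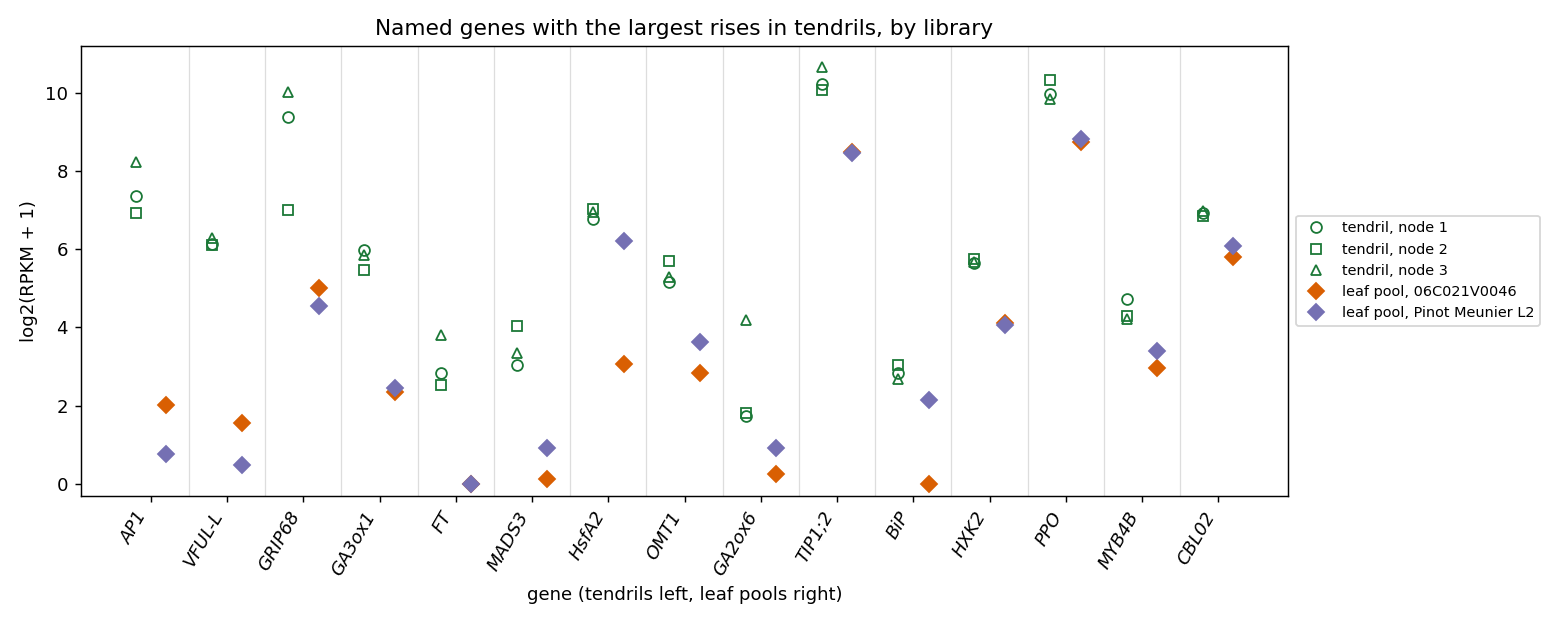
Levels as log2(RPKM + 1) (y axis) of the 15 named genes with the largest rises (x axis, by log2 change), with tendrils as open green symbols to the left, 1 shape per node, and the leaf pools as filled diamonds to the right. AP1, VFUL-L, GA3ox1 and FT lie far above both leaf pools, GRIP68 varies from 127 to 1036 RPKM between tendrils, and in HsfA2 and BiP the Pinot Meunier L2 leaf pool lies close to the tendrils.

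GRIP68, named as induced in ripening grape berries, stood at 668, 127 and 1036 RPKM in tendrils of nodes 1, 2 and 3, against 31.3 and 22.2 RPKM in the picovine and Pinot Meunier L2 leaf pools. Node 2 was the lowest tendril, yet it was above both pools (4.03 ± 0.69 SE, adjusted p = 0.00395 by limma). Of the 6 tested genes of ripening and dehydration it was the member called. Of 7 tested wall genes none was called, and in 3 of them this depended on the node 2 tendril. In 1 of these, GRIP31, it also depended on scaling. With all tendrils kept, GRIP31 changed by 1.12 under quantile normalization and by 1.28 under median-ratio scaling (adjusted p = 0.0423 and 0.0299 by limma). The pectate lyase PL1 had 238, 47.5 and 606 RPKM in tendrils, against 73.5 and 61.3 RPKM in the leaf pools, so that node 2 lay below both pools and nodes 1 and 3 above them (log2 change 1.49 ± 0.71 SE, adjusted p = 0.211 by limma). Without tendril node 2 the PL1 change was 2.48 (8.69e-05), and 3 of the 7 wall genes were called higher in tendrils: PL1, GRIP31 (0.00308) and GRIP28 (0.0376). Over all genes tested, leaving that library out raised the number called higher from 572 to 1153. Without tendril node 1 or node 3, which leaves the tendril level to the node 2 library, the PL1 change was -0.49.

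Of 3 heat response genes 2 were called higher in tendrils (66.7%, beside 2.89% of all genes and 6.36% of genes with a name). In all 3 the leaf pools stood far apart, and the effects of organ and vine on them cannot be told apart. HsfA2, a heat stress transcription factor, had 108, 128 and 124 RPKM in tendrils, against 7.32 RPKM in the picovine leaf pool and 72.4 RPKM in the Pinot Meunier L2 leaf pool. The leaf pools stood farther apart than the tendrils and the Pinot Meunier L2 pool, and the change was 2.29 ± 0.66 SE over both pools but 0.72 within that vine. BiP, a chaperone of the endoplasmic reticulum, had 6.20, 7.23 and 5.40 RPKM in tendrils, no read in the picovine pool and 3.42 RPKM in the Pinot Meunier L2 pool. HSP101, a chaperone that dissolves protein aggregates, had 483, 557 and 229 RPKM in tendrils, against 25.6 and 251 RPKM in those pools. Here the Pinot Meunier L2 pool lay among the tendrils, and the gene was not called (adjusted p = 0.0831 by limma), although it was without that pool (0.00323). HsfA2 and BiP were called (0.0459 and 0.0424 by limma) and neither was without the picovine pool (0.183 and 0.331) or with the block (0.157 and 0.275). Leaving out tendril node 1, 2 or 3 also ended the call of HsfA2 (0.161, 0.0705 and 0.162) and of BiP (0.129, 0.0698 and 0.129).

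Such a gap between the leaf pools was not rare. In 260 of the 2490 called genes (10.4%) the pools differed from each other by at least as much as the tendrils from the Pinot Meunier L2 pool. Among genes with names these were BiP, CIPK20, GFH2, HsfA2, MYB12 and POD1, a set chosen after its values were seen. POD1, a peroxidase, had 63.1, 49.1 and 17.4 RPKM in tendrils, against 4.47 and 20.1 RPKM in the picovine and Pinot Meunier L2 leaf pools, so that the node 3 tendril lay below the leaf pool of its own vine. MYB12, of the group that activates flavonol synthesis, had 40.2, 51.2 and 21.6 RPKM in tendrils, against 9.56 and 21.8 RPKM in those pools, and CIPK20, a calcium-signalling kinase, had 15.5, 11.3 and 2.48 RPKM, against 0.672 and 3.94 RPKM. All 3 overlapped within Pinot Meunier L2. They were called over both pools (adjusted p = 0.0404, 0.0496 and 0.0334 for POD1, MYB12 and CIPK20 by limma). Without the picovine pool they were not called (0.375, 0.42 and 0.305), nor without tendril node 2 (0.0743, 0.0898 and 0.0613). Without tendril node 1 or node 3 POD1 (0.0935 and 0.0927) and CIPK20 (0.0505 and 0.0518) also lost the call, and with the block all 3 did (0.218, 0.38 and 0.269). GFH2 had 1.09, 2.00 and 0.874 RPKM in tendrils, against 61.8 and 7.18 RPKM in the leaf pools (-3.32 ± 0.75 SE, adjusted p = 0.0163 by limma). It stayed below both pools in every tendril, but was not called without the picovine pool (0.156), without tendril node 1 or 3 (0.13 and 0.131) or with the block (0.141).

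Sugar handling differed in a few members of its list. On the deposited scale 4 of 18 genes were lower in tendrils (22.2%, beside 9.71% of all genes) and none higher. Both other scalings gave 2 higher and 2 lower, and leaving out tendril node 2 gave 3 higher and 4 lower. CWINV, the cell wall invertase that splits sucrose where it leaves the phloem, had 0.784, 0.776 and 0.547 RPKM in tendrils, against 28.3 and 12.8 RPKM in the picovine and Pinot Meunier L2 leaf pools (-3.57 ± 0.45 SE, adjusted p = 0.000718 by limma). The tendrils were alike and the lower of the pools was 18.3-fold above their mean. The hexose transporter HT5 had 2.23, 4.87 and 2.88 RPKM in tendrils, against 10.1 and 16.2 RPKM in the leaf pools, and HT4 had 1.78, 3.41 and 2.18 RPKM, against 5.58 and 10.7 RPKM. The neutral invertase NIN1 had 27.7, 39.0 and 29.0 RPKM in tendrils, against 59.3 and 73.7 RPKM in the leaf pools. In these 3 genes the groups did not overlap and the Pinot Meunier L2 pool was the higher. HT5, HT4 and NIN1 were called at 0.024, 0.0319 and 0.03 by limma, and none was without the Pinot Meunier L2 pool (0.115, 0.152 and 0.114) or without tendril node 1 (0.203, 0.234 and 0.216) or 3 (0.204, 0.233 and 0.218). Without the picovine pool HT5 and NIN1 were not called either (0.0637 and 0.0837). With the block HT5 stood at 0.064, and both transporters lost the call under quantile normalization (0.0534 and 0.11 for HT5 and HT4) and median-ratio scaling (0.0565 and 0.0665). HXK2, a hexokinase, which phosphorylates hexoses, is not in this list and rose. It had 49.2, 53.2 and 50.1 RPKM in tendrils, against 16.3 and 15.6 RPKM in the picovine and Pinot Meunier L2 leaf pools. Within each organ its values were close together (1.61 ± 0.28 SE, adjusted p = 0.00384 by limma).

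Of 10 aquaporins, membrane channels for water, 1 rose in tendrils and none fell, beside 12.6% of all genes called, with a median log2 change of 0.77. In 6 of the 10 all tendrils lay above both leaf pools (beside 10.8% of all genes), 5 of them without a call. TIP1;2, of the vacuolar membrane, had 1196, 1072 and 1616 RPKM in tendrils, against 355 and 348 RPKM in the picovine and Pinot Meunier L2 leaf pools. All tendrils were above both pools, which were alike (1.86 ± 0.49 SE, adjusted p = 0.0337 by limma). Its difference within Pinot Meunier L2 was 1.87, yet the call ended without the picovine pool (0.169), without the Pinot Meunier L2 pool (0.095) and without tendril node 1 or 3 (0.186 and 0.187). PIP2;3, of the plasma membrane, had 396, 518 and 397 RPKM in tendrils, against 98.1 and 293 RPKM in those pools, and was not called (0.0953), although it was without the Pinot Meunier L2 pool (0.0186).

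Of 25 enzymes of phenylpropanoid and flavonoid synthesis, 3 fell and 1 rose in tendrils, and the median was 0.15. This share of 16.0% stood beside 12.6% of all genes and 22.6% of genes with a name. F3'5'H, which adds the hydroxyl groups of the blue delphinidin-type pigments, had 4.70, 8.41 and 4.56 RPKM in tendrils, against 43.1 and 58.2 RPKM in the picovine and Pinot Meunier L2 leaf pools (-2.94 ± 0.33 SE, adjusted p = 0.000456 by limma). F3'H, its counterpart for the cyanidin-type pigments, had 162, 268 and 12.8 RPKM in tendrils, against 24.6 and 86.7 RPKM in those pools, with overlap and no call (0.608). OMT2.1, an O-methyltransferase, had 0.187, 0.505 and 2.14 RPKM in tendrils, against 8.78 and 8.25 RPKM in the leaf pools (-2.42 ± 0.41 SE, adjusted p = 0.00334 by limma). GVVPAL2, a phenylalanine ammonia-lyase at the entry of the pathway, had 0.517, 0.465 and 0.366 RPKM in tendrils, against 1.44 and 3.14 RPKM in the leaf pools. It was called at 0.028 by limma, but not without the Pinot Meunier L2 pool (0.121) or without tendril node 1 or 3 (0.131 each). OMT1, a further O-methyltransferase, rose, with 34.8, 50.8 and 37.9 RPKM in tendrils, against 6.14 and 11.4 RPKM in the picovine and Pinot Meunier L2 leaf pools. It changed by 2.15 ± 0.39 SE (adjusted p = 0.00499 by limma, and 0.0669 without the picovine pool). The chalcone synthases CHS1, CHS2 and CHS3 were not called, with adjusted p between 0.511 and 0.605.

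Of 15 MYB, MYC and WDR regulators, 2 rose and 1 fell (20.0%, beside 12.6% of all genes), and none was called without the picovine pool. MYB4B, of the group that represses phenylpropanoid genes, had 25.7, 18.7 and 17.7 RPKM in tendrils, against 6.78 and 9.52 RPKM in the picovine and Pinot Meunier L2 leaf pools (1.24 ± 0.28 SE, adjusted p = 0.0164 by limma). It was not called without the picovine pool (0.139), without tendril node 1 or 3 (0.112 and 0.111) or with the block (0.125). MYB30 had 6.01, 6.89 and 10.02 RPKM in tendrils, against 19.4 and 28.2 RPKM in the leaf pools (-1.53 ± 0.37 SE, adjusted p = 0.0213 by limma). That call ended without either leaf pool (0.0593 without the picovine and 0.101 without the Pinot Meunier L2 pool) and without tendril node 1 or 3 (0.0839 and 0.0848).

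PPO, the polyphenol oxidase that browns cut grape tissue, was the most abundant of the named rises besides TIP1;2, with 1000, 1270 and 913 RPKM in tendrils, against 422 and 450.1 RPKM in the picovine and Pinot Meunier L2 leaf pools. The groups did not overlap (1.27 ± 0.34 SE, adjusted p = 0.0336 by limma). It was not called without the picovine pool (0.172), the Pinot Meunier L2 pool (0.0741), tendril node 1 (0.0588) or tendril node 3 (0.0597), or with the block (0.127). Of 11 redox enzymes PPO and POD1 rose and none fell (18.2%, beside 12.6% of all genes and 22.6% of genes with a name).

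Calcium signalling runs through CBL sensor proteins and the CIPK kinases they bind. Of 26 such genes 2 rose and 2 fell, a share of 15.4%, beside 12.6% of all genes and 22.6% of genes with a name. CIPK15 had 1.41, 0.646 and 2.47 RPKM in tendrils, against 14.8 and 17.0 RPKM in the picovine and Pinot Meunier L2 leaf pools (-2.82 ± 0.42 SE, adjusted p = 0.00176 by limma). CIPK16 had 0.536, 0.803 and 0.390 RPKM in tendrils, against 2.22 and 3.39 RPKM in those pools (-1.26 ± 0.26 SE, adjusted p = 0.0106 by limma, and 0.0996 and 0.0993 without tendril node 1 or 3). The sensor CBL02 had 119.7, 115 and 126 RPKM in tendrils, against 54.4 and 67.1 RPKM in the leaf pools. Its tendril values were nearly equal (0.98 ± 0.23 SE, adjusted p = 0.0204 by limma), and it was not called without the picovine pool (0.154), without tendril node 1 or 3 (0.106 and 0.108) or with the block (0.0757).

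Several further leaf-side genes came from short lists. NDHM, a subunit of the chloroplast complex that cycles electrons around photosystem I, had 10.03, 9.10 and 10.8 RPKM in tendrils, against 36.3 and 27.5 RPKM in the picovine and Pinot Meunier L2 leaf pools (-1.57 ± 0.26 SE, adjusted p = 0.00328 by limma). It was the only 1 of 6 photosynthesis and chloroplast genes that was called: PSBP1, of the oxygen-evolving complex, had 752, 868 and 175 RPKM in tendrils, against 337 and 637 RPKM in those pools (0.955). VvCASPL2C1, related to the proteins that lay out the Casparian strip, had 10.6, 17.2 and 14.9 RPKM in tendrils, against 66.5 and 51.1 RPKM in the leaf pools (-1.99 ± 0.34 SE, adjusted p = 0.00383 by limma). GER6, a germin-like protein, was the most abundant of the named falls in tendrils, with 406, 424 and 417 RPKM, against 1731 and 1550 RPKM in the leaf pools. Its values were close within each organ, but its error was wide (-1.98 ± 0.54 SE, adjusted p = 0.037 by limma), and the call ended without the picovine pool (0.202), the Pinot Meunier L2 pool (0.0874), tendril node 1 (0.155) or tendril node 3 (0.156). HP3, a phosphotransfer protein of cytokinin signalling, had 21.9, 40.6 and 20.8 RPKM in tendrils, against 60.7 and 57.6 RPKM in the leaf pools. It was called at 0.0293 by limma, but not without the picovine pool (0.162), the Pinot Meunier L2 pool (0.0715), tendril node 1 (0.267) or tendril node 3 (0.27), or with the block (0.163).

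**Figure D5:**
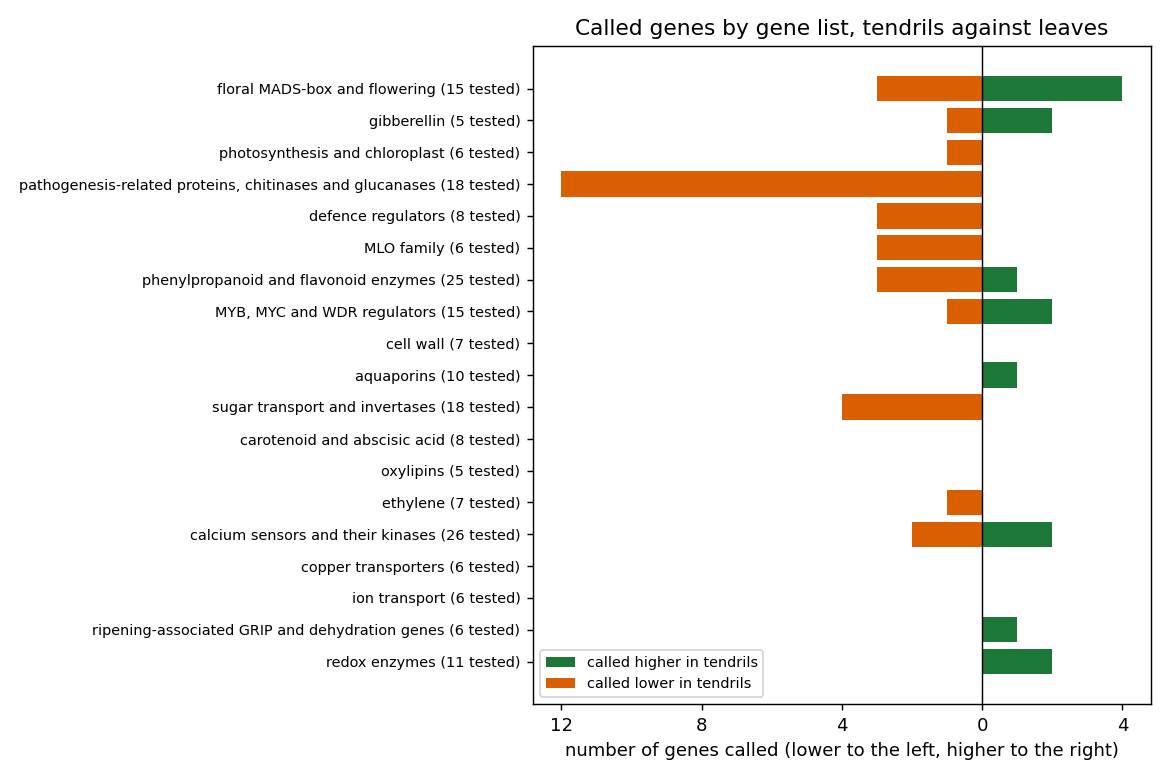
Number of called genes (x axis) higher in tendrils (green, to the right) and lower in tendrils (orange, to the left) in each gene list with at least 5 tested members (y axis, number tested in brackets). Pathogenesis-related proteins, chitinases and glucanases hold 12 falls and no rise, whereas the cell wall, carotenoid and abscisic acid, oxylipin, copper and ion transport lists hold no call.

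No call was made by limma in the lists for the cell wall (7 tested), carotenoids and abscisic acid (8), oxylipins (5), copper transporters (6), ion transport (6), alcohol dehydrogenases (3), light receptors (2) or auxin (1). This does not show that their levels were equal. The copper transporter CTR7, for example, had 3 reads in all tendrils, against 2.28 and 2.81 RPKM in the picovine and Pinot Meunier L2 leaf pools, and was not called (adjusted p = 0.212), but was with the 5 tendril and leaf libraries alone (0.0178). Of the 283 tested genes with a name, 64 were called (22.6%), beside the 12.6% of all genes, 18 of them higher and 46 lower in tendrils. Of these, 25 kept the call in all 13 alternatives: 6 rises (AP1, VFUL-L, FT, MADS3, GA3ox1 and HXK2) and 19 falls, which hold PR1, PR-1, 4 PR10 genes, G1, CHI1B, chit1a, EDS1, BAP1, MLO7, MLO11, CWINV, F3'5'H, GID1A, CIPK15, NDHM and CBF3. Many calls depended on the inflorescence libraries or the node slope in the fit. Of the 56 called genes that the naming rule selects, locus numbers included, 22 lost the call with the 5 tendril and leaf libraries alone. Without the node slope 14 lost it. With the 5 libraries alone the limma adjusted p was, for example, 0.0849 for GRIP68, 0.0892 for MLO6, 0.0533 for OMT2.1 and 0.0658 for PALM1. Without the slope it was, for example, 0.112 for AG (0.117 with a pseudocount of 5), 0.115 for VvCASPL2C1 and 0.0568 for LOC100265128. In 61 of the 64 called genes with a name the Pinot Meunier L2 leaf pool lay on the called side of all tendrils.

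A few transcripts were read in 1 organ only at these depths. With at least 1 RPKM in all 3 tendrils and no read in either leaf pool there were 3 genes, FT and 2 known by a locus number. With at least 1 RPKM in both leaf pools and no read in any tendril there were 51, 2 of them with names, singled out after their values were seen. PALM1, named after a zinc finger factor that shapes the compound leaf of Medicago, had 2.16 and 10.4 RPKM in the picovine and Pinot Meunier L2 leaf pools, and its tendril reads were at least 59.0-fold lower, with 3 reads as the floor of the tendrils together (adjusted p = 0.00327 by limma). CBF3, of the factors that switch on cold response genes, had 1.05 and 1.11 RPKM in those pools, and its tendril reads were at least 8.50-fold lower (adjusted p = 0.00553 by limma). Among genes known by a locus number, LOC100255834 had 69.2, 88.9 and 71.2 RPKM in tendrils, against 2.90 and 0.373 RPKM in the picovine and Pinot Meunier L2 leaf pools (5.05 ± 0.40 SE, adjusted p = 4.95e-05 by limma). LOC100243667 had 0.349, 0.588 and 0.513 RPKM in tendrils, against 84.7 and 116 RPKM in those pools (-6.08 ± 0.28 SE, adjusted p = 7.26e-06 by limma). LOC100265128 had 0, 4.41 and 0.534 RPKM in tendrils, against 117 and 306 RPKM in those pools (-6.55 ± 0.69 SE, adjusted p = 0.000294 by limma). All 3 kept their direction within Pinot Meunier L2, with differences of 5.81, -6.31 and -7.24.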

How the data were processed

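Per the labels' protocols, the libraries were made with an Illumina mRNA kit and read from 1 end. The authors deposited 1 RPKM value for each of 25771 gene numbers in each of 11 libraries. The submitters' processing notes name Bowtie 0.12.7 and TopHat 1.2.0. No build, annotation or counter is given in the sources used here, so no position is printed. Names came from the RefSeq table of ASM3070453v1, which held 18647 gene numbers (72.4%), 309 of them with a name. Values of all 24365 genes above 0 could be written as whole multiples of 1 read (100%, tolerance 0.01 read), which gave the depths and the read ratios. The smallest solution was taken for each gene. For genes read in few libraries a solution is nearly sure by construction. A factor common to all counts of a gene cannot be seen, so reads of such genes may be too low. Ratios have exact binomial 95% intervals, which like the floor of 3 reads cover counting error only.

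Genes with at least 1 RPKM in at least 2 libraries (19761) were tested on log2(RPKM + 1) with limma 3.58.1 (R 4.3.3), a scale that understates changes of low genes. The model held organ means and a node slope in inflorescences and in tendrils, with 6 residual and 4.54 prior degrees of freedom. All p-values are two-sided and Benjamini-Hochberg adjusted over all genes tested. Nothing in the labels says that the tendril libraries came from separate plants, and the leaf samples were pooled. No tendril node had a second library, and most residual degrees of freedom came from the 6 inflorescence libraries of 2 picovine lines. The p-values therefore measure only the spread of all 11 libraries around the model. Replicate numbers of tendrils and leaves are names in accession order and pair nothing; the block used was cultivar. The labels place both leaf pools opposite inflorescences, whereas the protocol names tendrils for Pinot Meunier L2, and it writes the picovine with another prefix than the labels.

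Named were the 15 largest rises and 15 largest falls among called genes with a name, at least 5 RPKM in the higher organ and no overlap, every called flowering gene, the 3 largest changes of each list, and 3 locus numbers each way. GID1A, CHI4C, PR10.4, PR10.8, HT4, NIN1, GVVPAL2, PALM1 and uncalled list members beyond these were named after their values were seen. Members and lists were chosen with earlier results of these data known. A sequence of these genes was not used here, and 1 called list member is not reported here. Alternatives were other pseudocounts (0.1 and 5), no filter, quantile and median-ratio scaling, the 5 libraries alone, no node slope, the block, and each library left out.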

Additional observations from a re-analysis of the deposited data

How the results depend on the processing

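The 2490 calls (572 higher, 1918 lower) stayed within 1.5 times under both pseudocounts, without the filter and without the node slope. Rises numbered 971 under quantile and 919 under median-ratio scaling. The tendril and leaf libraries alone gave 1083 calls (123 higher, 960 lower) on fewer libraries. The cultivar block, in which no replicate numbers pair tendrils with leaves, gave 1342 (216 higher, 1126 lower). Leaving out 1 library gave 1159 to 3428 calls, with 174 to 1153 higher and 985 to 2275 lower. The lowest was without the picovine pool and the highest without tendril node 2. Without tendril node 1 or 3 the tendril level rests on node 2 by construction. Of the 56 called genes that the naming rule selects, 6 locus numbers included, 25 kept the call in all 13 alternatives, 3 of them locus numbers. The 24 reversals concerned genes that were not called. With the block or without the picovine pool PIFI stood at 0.11, PHYE at -0.18, ADH3 at -0.19 and GRIP55 at -0.042. Over the fits that leave out 1 library, log2 changes ran from -0.49 to 2.48 for PL1, -0.52 to 1.46 for GRIP28, -0.29 to 1.43 for METK2, -0.72 to 1.42 for TPC1, -0.58 to 0.97 for GRIP21, -0.18 to 0.27 for PHYE and -0.18 to 1.05 for ADH2. They ran from -0.19 to 1.59 for ADH3, -0.042 to 0.57 for GRIP55, -1.47 to 0.11 for PIFI and -1.85 to 0.16 for LOXO. The cause was not tested. Depth limits genes under about 0.408 RPKM, the worth of 3 reads of a 1 kilobase gene in the shallowest library.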

Other observations

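Nitrogen assimilation was not among the gene lists, and its named genes were picked after their values were seen. GS, a glutamine synthetase, which fixes ammonium into glutamine, had 153, 132 and 197 RPKM in tendrils, against 363 and 313 RPKM in the picovine and Pinot Meunier L2 leaf pools. GS1, of the same enzyme, had 92.3, 135 and 76.8 RPKM in tendrils, against 188 and 266 RPKM in those pools. GDH, a glutamate dehydrogenase, had 78.2, 81.0 and 87.8 RPKM in tendrils, against 158 and 125 RPKM in those pools. All tendrils lay below both pools in the 3 genes, whose log2 changes were -1.08 ± 0.26, -1.17 ± 0.28 and -0.76 ± 0.22 SE, with limma adjusted p of 0.0206, 0.0191 and 0.043. Without the picovine pool the adjusted p was 0.135 for GS, 0.0381 for GS1 and 0.269 for GDH. Without the Pinot Meunier L2 pool GS1 stood at 0.0912, and without tendril node 1 or 3 GS1 stood at 0.182 and 0.184 and GDH at 0.13 and 0.132. BR6OX1, an enzyme that makes brassinosteroids, had 5.44, 2.23 and 5.76 RPKM in tendrils, against 12.9 and 12.5 RPKM in the leaf pools (-1.40 ± 0.37 SE, limma adjusted p = 0.0341). It was not called without the picovine pool (0.177) or the Pinot Meunier L2 pool (0.0878).

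In 2 of the rises known by a locus number the tendril libraries differed widely. LOC100245385 had 90.9, 11.1 and 326 RPKM in tendrils of nodes 1, 2 and 3, against 3.44 and 0.845 RPKM in the picovine and Pinot Meunier L2 leaf pools. LOC100263822 had 771, 50.3 and 1209 RPKM in tendrils, against 26.6 and 13.9 RPKM in those pools. Node 2 was the lowest tendril in both, and in both it stood above the leaf pools. Their limma adjusted p was 0.0191 and 0.0288, and 0.203 and 0.238 without tendril node 1, 0.205 and 0.239 without tendril node 3, 0.0747 and 0.119 without the picovine pool, and 0.0976 and 0.118 without the Pinot Meunier L2 pool. LOC100246174 had 7 reads in all tendrils, against 175 and 35.2 RPKM in the leaf pools (limma adjusted p = 0.00174), and it kept the call in every alternative run.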
